A study of Mus musculus with 54 samples.

Results

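The mitochondrial genome of the mouse, a circular DNA listed as chromosome M, was followed through RNA-seq counts of 3 brain regions. Its members were taken by position and name, with earlier results of these data known. They were every gene of the count table on chromosome M with a symbol that starts with mt-. This gave 37 of 47069 genes: 13 mRNA genes, 2 rRNA genes and 22 tRNA genes. RNA came from the cerebellum, cortex and striatum of 10 Mbd5+/GT and 8 WT littermate mice on a C57BL/6 background at 8 weeks of age, which gave 54 libraries, 1 for each region of a mouse. The Mbd5+/GT mice carry 1 copy of a gene-trap insertion in an intron of Mbd5, which leaves a hypomorphic allele, and WT mice carry none. Litter 1 held 3 Mbd5+/GT and 3 WT mice, litter 2 held 4 and 1, and litter 3 held 3 and 4. All mice of litter 1 were female and all of litter 2 male, and litter 3 held both sexes. The labels give polyadenylated RNA as the molecule. They say that the samples of a tissue shared a collection day, and whether the 3 regions shared it is not given in the sources used here.

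Both strands of the mitochondrial genome are transcribed as long precursors. The tRNAs lie between most of the other genes and are cut out, which frees the rRNAs and mRNAs. The mRNAs encode core subunits of the respiratory chain and the ATP synthase, the rRNAs build the mitochondrial ribosome, and all factors that copy, cut, modify and degrade these RNAs come from nuclear genes. In neurons, oxidative phosphorylation supplies most of the energy for ion pumping and synaptic transmission. Most mitochondrial mRNAs and the rRNAs carry short A tails, while mature tRNAs end in CCA, and how far a polyadenylated library captures each kind was not tested.

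A library held between 25295973 and 49027399 counts on genes, with a median of 29073866. Mbd5 fell in all 3 regions, by 0.34 on the log2 scale in cerebellum, 0.49 in cortex and 0.51 in striatum (edgeR's quasi-likelihood test, Benjamini-Hochberg adjusted p = 0.00912, 0.000120 and 9.41e-05). The genotypes overlapped in Mbd5 in every region, with 5 of 10 Mbd5+/GT mice below all WT mice in cerebellum, 7 in cortex and 3 in striatum. Markers of the labelled region were checked in each library as summed CPM (counts scaled to the same library total). They were low in 4 libraries, below 1/3 of the median of their region. The cerebellum library of Mbd5+/GT mouse M755 had 194 CPM of cerebellum markers and that of WT mouse M754 had 2018, against 4257 to 6754 in the other 16. The striatum libraries of WT mice M754 and M761 had 355 and 821 CPM of striatum markers, against 1654 to 8886 in the other 16. Cerebellum markers summed to 86.6 to 358 CPM in the other regions. Striatum markers summed to 271 to 2441 CPM in cortex libraries, and 4 of the other 16 striatum libraries lay below the highest of these. Cortex markers summed to 168 to 1553 CPM in striatum libraries, which overlapped the 869 to 1811 of cortex. How far tissue of one region was in libraries of the other was not tested. The cerebellum library of mouse M755 also held the highest summed oligodendrocyte markers, 33612 CPM against a cerebellum median of 6952. The tests between regions and genotypes, the shares and the ratios were also computed without these 4, and levels and gene lists include them.

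Reads on part of the genome cannot be assigned with certainty, because nuclear chromosomes carry copies of mitochondrial sequence. Most are annotated as pseudogenes, while Gm20594, which matches part of mt-Rnr2, is annotated as protein-coding. The aligner's counting keeps only reads that map to 1 place. Of the 50-base words of mt-Co2, the second subunit of cytochrome c oxidase, 100% also occurred in annotated nuclear transcripts. The share was 99.5% for mt-Atp6, 99.9% for mt-Co3, 98.0% for mt-Nd3 and 98.8% for mt-Nd4l. It was 62.2% for mt-Nd4, 51.1% for mt-Co1, 8.19% for mt-Nd2, 7.61% for mt-Nd5 and 1.04% for mt-Rnr2, and 0% for mt-Nd1, mt-Cytb, mt-Nd6, mt-Atp8, mt-Rnr1 and every tRNA gene. Only annotated transcripts were searched, and not the stretches between them, so mt-Atp8 and tRNA genes that lie between copied genes, such as mt-Tk, mt-Tg and mt-Tr, may also have nuclear copies. Of the copies, 7 lie in a cluster at chr1:24611535-24616197 and 3 at chr2:22587291-22590533 (GRCm38). The first 90 bases of mt-Co2 are shown because every base compared with the nuclear copy Gm28661 is the same (0 of 681 differ), and those of mt-Nd2 (bases 529 to 618 of the gene, chrM:4442-4531, plus strand) because its copy Gm13339 differs at 17 of 510 bases. Capitals mark the bases at which mt-Nd2 and its copy differ.
mt-Co2 and Gm28661: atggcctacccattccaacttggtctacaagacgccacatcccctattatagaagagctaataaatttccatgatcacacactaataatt
mt-Nd2: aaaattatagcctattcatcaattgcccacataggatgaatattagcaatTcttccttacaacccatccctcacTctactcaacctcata
Gm13339: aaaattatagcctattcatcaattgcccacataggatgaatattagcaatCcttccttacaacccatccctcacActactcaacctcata

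A read that covers a capital can be told from the nuclear copy, and one from mt-Co2 cannot. The 3 copies with the highest mean counts were Gm13340 with 17.3 CPM, Gm10925 with 16.3 and Gm29216 with 14.0, against means of 3779 to 17811 CPM for the 8 abundant members described next. Counts of mt-Co2, mt-Atp6, mt-Co3, mt-Nd3 and mt-Nd4l are therefore of uncertain origin throughout, and reads lost to the copies cannot be told apart from low transcript levels. mt-Atp8 lies between mt-Co2 and mt-Atp6, whose copies lie at chr1:24614885-24615565 and chr1:24613974-24614651, so its counts may be of uncertain origin too.

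The 8 abundant members were both rRNA genes, mt-Rnr1 and mt-Rnr2, and the mRNA genes mt-Nd1, mt-Nd2, mt-Co1, mt-Nd4, mt-Nd5 and mt-Cytb. They held between 99.6% and 99.9% of the counts on chromosome M in every library. The 6 mRNA genes mt-Co2, mt-Atp8, mt-Atp6, mt-Co3, mt-Nd3 and mt-Nd4l together held 0.0197% to 0.0818%, which was 291 to 1559 counts per library. The 22 tRNA genes together held 0.0219% to 0.0897%, or 296 to 1858 counts. mt-Nd6, the 1 mRNA gene on the minus strand, lay between these classes with a mean of 59.2 CPM. Of the members, 24 passed the filter on low counts (over 4 counts in at least 8 libraries) in cerebellum and in striatum and 23 in cortex. The other 13 members, all tRNA genes, passed it in no region.

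**Figure D1:**
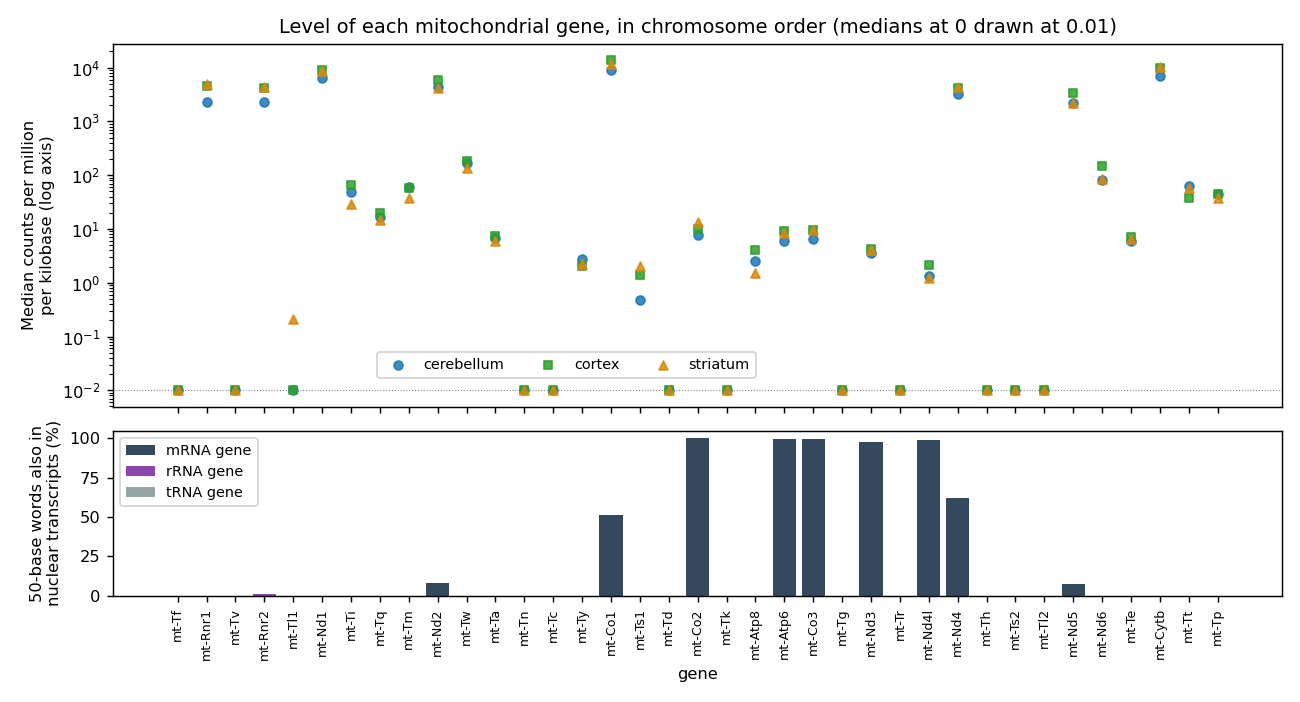
Level of the 37 mitochondrial genes and share of their sequence in annotated nuclear transcripts, with genes in chromosome order. The upper panel gives the median CPM per kilobase over the 18 libraries of each region on a log axis (medians of 0 are drawn at 0.01), and the lower panel the percentage of each gene's 50-base words found in nuclear transcripts; 5 mRNA genes at 98.0% to 100% have medians of 1.23 to 13.5 and the 6 abundant mRNA genes have medians from 2169 to 13613.

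The tRNA genes are shown as sequences because their counts were so uneven. The 5 with the highest mean counts were mt-Tw, mt-Ti, mt-Tm, mt-Tt and mt-Tp, which encode the tRNAs for tryptophan, isoleucine, methionine, threonine and proline, at means of 10.7, 3.58, 3.56, 3.54 and 3.06 CPM. Of the remaining tRNA genes, 4 had a count of 0 in every one of the 54 libraries: mt-Tk, mt-Tr, mt-Ts2 and mt-Tl2, for lysine, arginine, serine and leucine. Each is printed in its own 5′ to 3′ direction (GRCm38, chromosome M), and capitals mark bases shared with a neighbouring gene.
mt-Tw: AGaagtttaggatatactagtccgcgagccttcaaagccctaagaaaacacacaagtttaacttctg
mt-Ti: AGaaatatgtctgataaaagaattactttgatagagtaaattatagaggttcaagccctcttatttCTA
mt-Tm: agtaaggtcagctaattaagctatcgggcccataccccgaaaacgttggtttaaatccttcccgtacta
mt-Tt: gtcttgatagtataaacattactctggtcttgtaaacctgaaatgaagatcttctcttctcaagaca
mt-Tp: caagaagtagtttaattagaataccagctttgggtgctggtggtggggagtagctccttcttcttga
mt-Tk: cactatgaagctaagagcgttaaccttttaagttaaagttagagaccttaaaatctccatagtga
mt-Tr: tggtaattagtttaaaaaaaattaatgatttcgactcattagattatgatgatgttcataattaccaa
mt-Ts2: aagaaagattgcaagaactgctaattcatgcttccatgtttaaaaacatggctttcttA
mt-Tl2: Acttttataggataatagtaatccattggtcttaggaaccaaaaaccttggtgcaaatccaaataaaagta

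mt-Tw (chrM:4950-5016, plus strand) begins with the last 2 bases of mt-Nd2, and mt-Ti (chrM:3706-3774, plus strand) shares its first 2 bases with mt-Nd1 and its last 3 with mt-Tq. mt-Tm (chrM:3845-3913, plus strand) precedes mt-Nd2. mt-Tt (chrM:15289-15355, plus strand) follows mt-Cytb and is followed by mt-Tp (chrM:15356-15422, minus strand). Of the 14 tRNA genes on the plus strand, 4 passed the filter in at least 1 region and 4 were at 0 everywhere, and of the 8 on the minus strand, 5 passed and 0 were at 0 everywhere. A count of 0 in a library of this depth does not show that the tRNA is absent from the tissue.

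The share of all gene counts that fell on chromosome M was given as a description, since it is a sum over the members. In cerebellum it ran from 4.18% to 6.38% in WT mice, with a median of 4.52%, and from 4.11% to 5.71% in Mbd5+/GT mice, with a median of 4.85%. In cortex it ran from 5.75% to 8.25% in WT mice (median 7.16%) and from 5.31% to 8.42% in Mbd5+/GT mice (median 6.51%). The genotypes overlapped over most of their range in both regions. In striatum it ran from 4.25% to 7.70% in WT mice (median 5.30%) and from 4.82% to 7.77% in Mbd5+/GT mice (median 6.74%), again with overlapping ranges. Without the 4 libraries low in region markers, the medians were 4.46% in WT and 4.84% in Mbd5+/GT cerebellum and 5.75% in WT striatum.

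Within a mouse, cortex had a higher share than cerebellum in 18 of 18 mice, with a median ratio of 1.42. Striatum had a higher share than cerebellum in 16 of 18 mice (median ratio 1.33, and 1.04 over the 8 WT mice), and cortex a higher share than striatum in 11 of 18 (median ratio 1.12). With the 4 libraries low in region markers left out, these were 16 of 16, 14 of 15 and 9 of 16 mice (median ratios 1.43, 1.41 and 1.11). The rRNAs made up 9.30% to 14.8% of chromosome M counts in cerebellum, 12.97% to 21.0% in cortex and 14.7% to 29.7% in striatum. The striatum libraries of WT mouse M752 (29.7%) and Mbd5+/GT mouse M753 (28.7%) lay highest. The next was that of WT mouse M761 (25.1%), 1 of the 4 libraries low in region markers. The labels of the striatum libraries of WT mice M751 and M752 contain rep, and its meaning is not given in the sources used here. In bulk tissue, a higher share can come from more cells of a type, more mitochondrial RNA per cell or less other RNA, and these cannot be told apart.

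**Figure D2:**
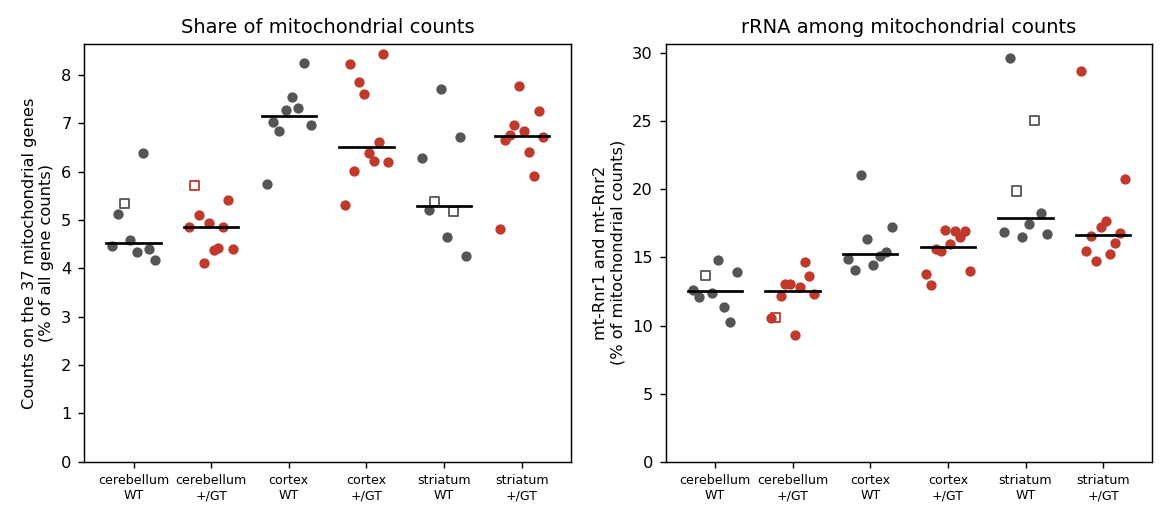
Share of counts on mitochondrial genes (left, percent of all gene counts) and share of both rRNAs among mitochondrial counts (right, percent), 1 point per library by region and genotype, with lines at the medians. Open squares are the 4 libraries low in markers of their own region; all 18 cortex shares lie between 5.31% and 8.42%, and 2 striatum libraries lie above 28% in rRNA share.

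The levels of the abundant members were compared between genes per length, as CPM per kilobase. mt-Co1, the core subunit of complex IV, had 7808 to 12976 CPM per kilobase in cerebellum (median 8989.8), 11584 to 16644 in cortex (median 13613) and 7458 to 14334 in striatum (median 11711). It had the highest median of all members in each region. mt-Cytb, the subunit of complex III encoded here, had 6211 to 8711 CPM per kilobase in cerebellum (median 6869.9), 7392 to 11356 in cortex (median 9808) and 6819.6 to 11744 in striatum (median 10094). mt-Nd1, a membrane subunit of complex I, had 5736 to 8706 CPM per kilobase in cerebellum (median 6412), 6786 to 11602 in cortex (median 9188) and 4423 to 11283 in striatum (median 8498). mt-Cytb and mt-Nd1 overlapped each other in every region. mt-Nd2, another complex I subunit, had 3116 to 5946 CPM per kilobase in cerebellum (median 4379), 3748 to 7104 in cortex (median 5941) and 2242 to 6323 in striatum (median 4109). mt-Nd4, also of complex I, had 2682 to 3923 CPM per kilobase in cerebellum (median 3179.9), 3047 to 4855 in cortex (median 4127) and 2957 to 5368 in striatum (median 4454). mt-Nd5, the longest of the complex I subunits encoded here, had 1395 to 3563 CPM per kilobase in cerebellum (median 2219.6), 2473 to 4690.4 in cortex (median 3390.0) and 1418 to 3412 in striatum (median 2169). The full length of each gene was used, so levels of mt-Nd4 and mt-Co1, where 62.2% and 51.1% of 50-base words are shared with nuclear transcripts, may be understated, and mt-Nd4 is not ranked against the others.

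mt-Rnr1, the rRNA of the small ribosomal subunit, had 1509 to 2848 CPM per kilobase in cerebellum (median 2294), 3099.9 to 6017 in cortex (median 4492) and 3076 to 7165 in striatum (median 4932). mt-Rnr2, the rRNA of the large subunit, had 1667 to 2956 CPM per kilobase in cerebellum (median 2348), 2762 to 5544 in cortex (median 4186) and 2632 to 5449.9 in striatum (median 4313). Both rRNAs lay lower in cerebellum than in the other regions in each of the 18 mice. mt-Nd6, the complex I subunit read from the other strand, had 42.2 to 186 CPM per kilobase in cerebellum (median 83.1), 39.3 to 455 in cortex (median 147) and 34.7 to 169 in striatum (median 84.2). Its ranges overlapped between all regions and had a larger ratio of highest to lowest than those of any abundant member. Among the members of uncertain origin, medians by region were 7.66 to 13.5 CPM per kilobase for mt-Co2, 6.03 to 9.03 for mt-Atp6, 6.45 to 9.71 for mt-Co3, 3.51 to 4.23 for mt-Nd3 and 1.23 to 2.17 for mt-Nd4l. mt-Atp8, a small subunit of the ATP synthase that shares 43 bases with mt-Atp6, had medians of 1.49 to 4.09.

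Most members were lower in cerebellum than in cortex. Of the 24 members that passed the filter in at least 1 region, 15 fell in cerebellum, against 33.3% of all genes, and 1 rose, against 35.5% (edgeR's quasi-likelihood test over 54 libraries, adjusted p under 0.05 over 20477 genes). The 15 were both rRNAs, 11 of 13 mRNA genes and the tRNA genes mt-Tq and mt-Te. The 11 include mt-Co2, mt-Co3 and mt-Nd4l, which are of uncertain origin, and mt-Atp8, which may be. A further tRNA gene, mt-Ts1, entered the fit over all regions through 7 cortex and 7 striatum libraries, and 1 of cerebellum, with over 4 counts, so it passed through the regions where it is higher and is not counted here (medians of 1, 3 and 4 counts in cerebellum, cortex and striatum). The median log2 fold change of the 24 was −0.47, beside 0.02 for all genes. The rRNAs differed most among the abundant members: the log2 fold change of cerebellum over cortex was −1.07 ± 0.09 (adjusted p = 1.26e-14) for mt-Rnr1 and −0.87 ± 0.09 (adjusted p = 1.41e-12) for mt-Rnr2, and each was lower in cerebellum in 18 of 18 mice. It was −0.68 ± 0.12 (adjusted p = 7.57e-07) for mt-Nd5, −0.63 ± 0.07 (adjusted p = 7.04e-11) for mt-Co1, −0.49 ± 0.09 (adjusted p = 4.83e-06) for mt-Nd1 and −0.47 ± 0.06 (adjusted p = 4.99e-09) for mt-Cytb, which were also lower in cerebellum in 18 of 18 mice. mt-Nd2 fell by 0.42 and mt-Nd4 by 0.36 on the same scale, in 15 and 17 of 18 mice (adjusted p = 8.74e-04 and 4.58e-06). mt-Nd6 also fell, with −0.96 ± 0.23 (adjusted p = 2.27e-04).

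mt-Tt, the threonine tRNA gene, went the other way. Its normalised counts (TMM-normalised CPM, scaled within each region separately) ran from 2.71 to 7.43 with a median of 4.32 in cerebellum. In cortex they ran from 1.25 to 3.31 with a median of 2.50. Its CPM without this scaling was higher in cerebellum in 17 of 18 mice. The log2 fold change was 0.79 ± 0.15 (adjusted p = 5.57e-06). The neighbouring mRNA gene mt-Cytb, from the same strand, fell in the same comparison. mt-Atp6 and mt-Nd3 did not pass the test. Without the 4 libraries low in region markers, 16 members were again called. A replicate block for the mouse also gave 16, where mt-Atp6 entered with −0.46 (adjusted p = 0.0226) and mt-Te left with −0.60 (adjusted p = 0.0524).

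Against striatum, 8 of the same 24 members fell in cerebellum, beside 37.3% of all genes, and 3 rose, beside 38% (same test). The 8 were both rRNAs, mt-Nd1, mt-Co1, mt-Co2, mt-Co3, mt-Nd4 and mt-Cytb, and the 3 were the tRNA genes mt-Tm, mt-Tw and mt-Tt. Of the 8, mt-Co2 and mt-Co3 are of uncertain origin. mt-Rnr1 differed by −1.13 ± 0.09 (adjusted p = 1.51e-15) and mt-Rnr2 by −0.82 ± 0.09 (adjusted p = 6.87e-12), each lower in cerebellum in 18 of 18 mice. mt-Cytb differed by −0.45 ± 0.06 (adjusted p = 1.30e-08) and mt-Nd4 by −0.41 ± 0.07 (adjusted p = 2.98e-07), each lower in 16 of 18 mice. Both mt-Nd1 and mt-Co1 had smaller estimates: mt-Nd1 differed by −0.22 ± 0.09 (adjusted p = 0.0287), lower in 11 of 18 mice, and mt-Co1 by −0.22 ± 0.07 (adjusted p = 0.00608), lower in 14. mt-Nd2 (0.14 ± 0.11) and mt-Nd5 (0.02 ± 0.11) did not pass. mt-Tm was higher in cerebellum by 0.46 ± 0.13 (adjusted p = 0.00149) and mt-Tw by 0.53 ± 0.18 (adjusted p = 0.00871). For mt-Tt the difference was 0.32 ± 0.15 with an adjusted p of 0.0454, and the call was lost in 5 alternative fits. In WT mice alone, 6 members were called, with mt-Nd1 at −0.06 ± 0.14 and mt-Co1 at −0.13 ± 0.12 among those lost, and mt-Nd1 was also lost with no filter on low counts (adjusted p = 0.0540). Without the 4 libraries low in region markers 12 were, and without the striatum libraries of mice M752 and M753 also 12. With the mouse as a replicate block 12 were called, where mt-Ti entered with 0.85 (adjusted p = 0.0142).

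Between cortex and striatum the rRNAs did not pass the test, while 7 mRNA genes did. mt-Rnr1 differed by −0.06 ± 0.09 and mt-Rnr2 by 0.05 ± 0.09 (adjusted p = 0.570 and 0.664), and each was higher in cortex in 9 of 18 mice. Of the 24 members, 11 were higher in cortex, beside 30.1% of all genes, and 1 was lower, beside 28.9%. Higher were mt-Nd1, mt-Nd2, mt-Co1, mt-Atp8, mt-Nd4l, mt-Nd5 and mt-Nd6 and the tRNA genes mt-Ti, mt-Tq, mt-Tm and mt-Tw, and mt-Tt was lower. Of these, mt-Nd4l is of uncertain origin and mt-Atp8 may be, with median counts of 14 and 17 per library. mt-Nd5 differed by 0.71 ± 0.12 (adjusted p = 1.24e-06), higher in cortex in 15 of 18 mice, and mt-Nd2 by 0.56 ± 0.11 (adjusted p = 3.78e-05), higher in 14. mt-Co1 differed by 0.41 ± 0.07 (adjusted p = 5.15e-06), higher in 17 mice, and mt-Nd6 by 0.86 ± 0.23 (adjusted p = 0.00121), higher in 11. mt-Nd4 (−0.05 ± 0.07) and mt-Cytb (0.02 ± 0.06) did not pass. mt-Nd1 differed by 0.27 ± 0.09 (adjusted p = 0.00884), and without the striatum libraries of mice M752 and M753 its adjusted p was 0.0556. The count of 12 was the same with the mouse as a replicate block and without the 4 libraries low in region markers. The markers of cortex and striatum overlapped between these libraries, as given above, and their part in this comparison was not tested.

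**Figure D3:**
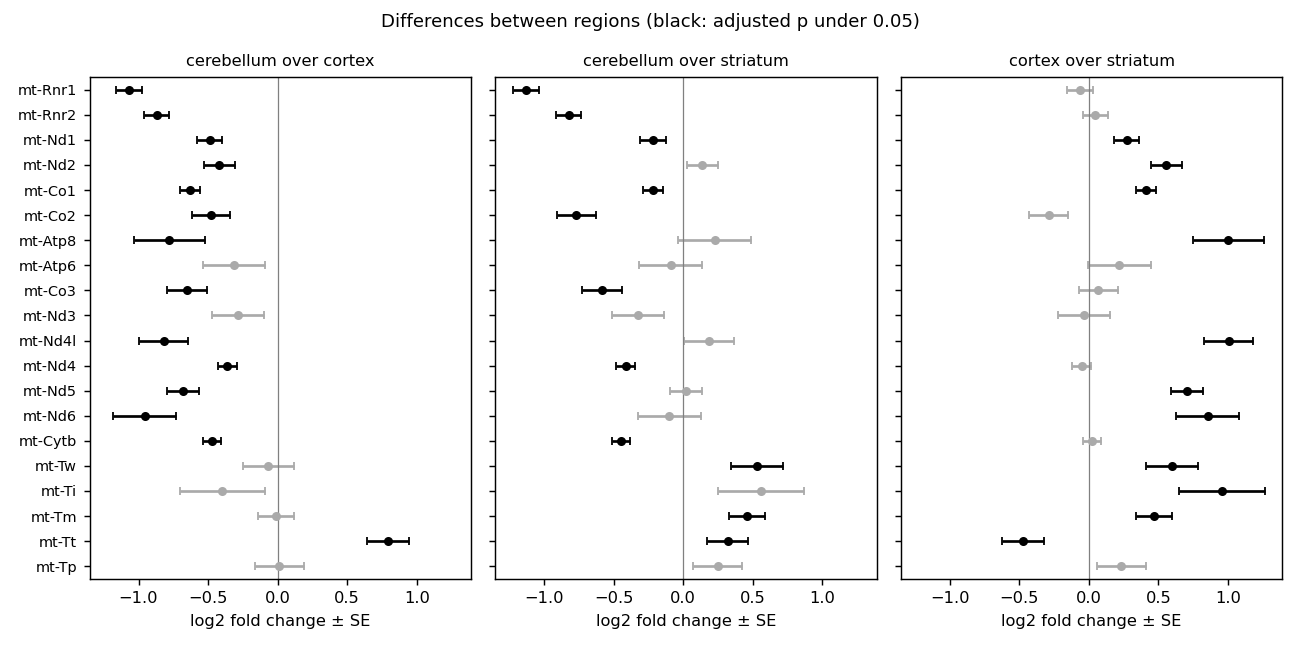
Log2 fold changes between regions (points) with standard errors (bars) for the 13 mRNA genes, both rRNA genes and the 5 tRNA genes with the highest mean counts, from 54 libraries; black marks an adjusted p under 0.05. The rRNAs lie between −1.13 and −0.82 in both comparisons of cerebellum and near 0 between cortex and striatum, and mt-Tt is the 1 gene in black to the right of 0 in the first panel and the 1 in black to the left in the third.

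The balance of transcripts was measured as the ratio of raw counts of 2 genes in the same library, which does not depend on library size. Exact sign-flip tests over 18 mice (2-sided, 12 comparisons, Benjamini-Hochberg adjusted) compared the regions, and differences are given as log2 ± SD over mice. The ratio of the small to the large rRNA, mt-Rnr1 to mt-Rnr2, ran from 0.522 to 0.614 with a median of 0.578 in cerebellum, 0.619 to 0.699 with a median of 0.664 in cortex and 0.627 to 0.794 with a median of 0.713 in striatum. Cerebellum and cortex did not overlap. The difference was −0.20 ± 0.08 for cerebellum to cortex and −0.30 ± 0.13 for cerebellum to striatum, lower in cerebellum in 18 of 18 mice in each (adjusted exact p = 2.29e-05, where 7.63e-06 is the smallest p the test can give). Cortex was lower than striatum, with −0.10 ± 0.10 in 15 of 18 mice (adjusted exact p = 7.48e-04). Without the 4 libraries low in region markers these differences were −0.21, −0.31 and −0.10.

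The ratio of mt-Rnr2 to the adjacent mRNA gene mt-Nd1 ran from 0.464 to 0.658 with a median of 0.601 in cerebellum, 0.615 to 1.20 with a median of 0.758 in cortex and 0.655 to 1.86 with a median of 0.810 in striatum. It was lower in cerebellum than in cortex by 0.38 ± 0.18 and than in striatum by 0.61 ± 0.47, in 18 of 18 mice in each (adjusted exact p = 2.29e-05). Cortex and striatum differed by −0.24 ± 0.49, which did not pass (adjusted exact p = 0.0689). The ratio of mt-Cytb, the last mRNA gene of the plus strand, to mt-Nd1, the first, ran from 1.17 to 1.36 with a median of 1.26 in cerebellum, 1.11 to 1.32 with a median of 1.23 in cortex and 1.15 to 2.14 with a median of 1.40 in striatum. It was higher in striatum, by 0.25 ± 0.28 over cerebellum in 13 of 18 mice and 0.27 ± 0.26 over cortex in 16 of 18 (adjusted exact p = 0.00288 and 1.46e-04). The ranges overlapped, and the highest ratio of each other region lay below the striatum median. Cerebellum and cortex differed by 0.02 ± 0.09 (adjusted exact p = 0.362). Leaving out the 4 libraries low in region markers, mt-Rnr2 to mt-Nd1 differed by −0.34, −0.58 and −0.25 for cerebellum to cortex, cerebellum to striatum and cortex to striatum, and mt-Cytb to mt-Nd1 by 0.04, −0.24 and −0.28, with the same comparisons past the threshold. The ratio of mt-Nd6 to mt-Nd5, whose genes face each other on opposite strands and share 14 bases, had medians of 0.0110 (cerebellum), 0.0101 (cortex) and 0.0110 (striatum). No difference passed (adjusted exact p = 0.530 to 0.925), and the strand column used for counting is not stated, so its level is uncertain.

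No member passed the adjusted test between genotypes. In cerebellum, 0 of 24 members had an adjusted p under 0.05, beside 0.00551% of all genes, and 0 an unadjusted p under 0.05, beside 2.75% (edgeR with 2 surrogate variables, with 0 and 0 by DESeq2, and 0 and 0 by edgeR without the 2 cerebellum libraries low in region markers). In cortex, 0 of 23 had an adjusted p under 0.05, beside 0.0107% of all genes, and 0 an unadjusted p under 0.05, beside 8.47% (4 surrogate variables, with 0 and 1 by DESeq2). The median log2 fold change of Mbd5+/GT over WT was 0.01 in cerebellum, where 16 of 24 members were above 0, and −0.05 in cortex, where 7 of 23 were. For all genes it was −0.0035 and −0.0042. Among the abundant members the estimates lay between −0.07 (mt-Rnr2) and 0.05 (mt-Co1) in cerebellum and between −0.11 (mt-Rnr2) and −0.01 (mt-Nd1) in cortex, with standard errors of 0.05 to 0.10. mt-Co1 had normalised counts of 11757 to 19968 with a median of 13764 in WT and 11884 to 18538 with a median of 14939 in Mbd5+/GT cerebellum, and 19456 to 25661 with a median of 21852 and 17888 to 24936 with a median of 20468 in cortex. The genotypes overlapped in both regions.

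In striatum, 0 of 24 members had an adjusted p under 0.05, beside 0.00539% of all genes, and 5 an unadjusted p under 0.05, beside 7.44% (edgeR with 4 surrogate variables, with 0 and 5 by DESeq2, where mt-Atp6 took the place of mt-Nd4l). Of the 5, 4 were higher in Mbd5+/GT mice, beside 4.24% of all genes, and 1 was lower, beside 3.2%. The estimate was above 0 for 21 of 24 members, with a median of 0.22, beside −0.01 for all genes. The members were measured in the same libraries, so counts of signs and of calls, here and in the other comparisons, are not separate observations. Normalised counts of mt-Nd1 ran from 4236 to 10138 with a median of 6083 in WT and from 4813 to 11197 with a median of 8666 in Mbd5+/GT striatum. The groups overlapped, and 9 of 10 Mbd5+/GT mice lay above the WT mean. The edgeR estimate was 0.25 ± 0.11 (unadjusted p = 0.0387, adjusted p = 0.644). Those of mt-Nd2 ran from 2329 to 6556 with a median of 2784 in WT and from 2492 to 6647 with a median of 5116 in Mbd5+/GT striatum, with an estimate of 0.30 ± 0.14 (unadjusted p = 0.0450, adjusted p = 0.660). mt-Co3, of uncertain origin, ran from 4.02 to 10.1 with a median of 6.48 in WT and from 5.11 to 14.7 with a median of 9.33 in Mbd5+/GT striatum, with 0.37 ± 0.15 (unadjusted p = 0.0298, adjusted p = 0.638). mt-Nd4l, also uncertain, ran from 0.158 to 0.591 with a median of 0.243 in WT and from 0.327 to 0.758 with a median of 0.419 in Mbd5+/GT striatum, with 0.55 ± 0.24 (unadjusted p = 0.0354, adjusted p = 0.643). The genotypes overlapped for all 4.

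mt-Tt was the member with the smallest unadjusted p and the 1 that was lower. Its normalised counts ran from 1.76 to 6.71 with a median of 4.04 in WT and from 1.77 to 4.93 with a median of 2.97 in Mbd5+/GT striatum, with an estimate of −0.43 ± 0.13 (unadjusted p = 0.00528, adjusted p = 0.629). The groups overlapped, and 3 of 8 WT mice lay above all Mbd5+/GT mice. The rRNAs had estimates of 0.10 ± 0.16 for mt-Rnr1 and 0.10 ± 0.16 for mt-Rnr2, mt-Co1 0.15 ± 0.08, mt-Nd5 0.18 ± 0.10, mt-Nd4 0.11 ± 0.09 and mt-Cytb 0.11 ± 0.09. None of these passed at an unadjusted p under 0.05.

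The striatum differences were uneven over litters. For mt-Nd1 the difference of mean log2 normalised counts was 0.55, 1.02 and 0.02 in litters 1, 2 and 3, and for mt-Nd2 it was 0.85, 1.07 and 0.07 in litters 1, 2 and 3. For mt-Tt it was −0.33, −0.03 and −1.05 in litters 1, 2 and 3. Litter 2 holds 1 WT mouse, and its mice are all male while those of litter 1 are all female. Terms for sex by genotype were tested with edgeR without surrogate variables. They had an unadjusted p under 0.05 for 0 members in each region, beside 0.540%, 1.30% and 1.62% of all genes in cerebellum, cortex and striatum. Without litter 2, 0 members had an unadjusted p under 0.05, and without the 4 libraries low in region markers, 1 had (mt-Tt), where mt-Nd1 was 0.19 ± 0.12 and mt-Nd2 0.20 ± 0.15. Spike-ins, synthetic RNAs added to each sample, had a higher median share in WT than in Mbd5+/GT striatum, with overlapping ranges, and this was not tested. They took 0.129% to 0.728% of all counts in WT mice (median 0.517%) and 0.0920% to 0.713% in Mbd5+/GT mice (median 0.194%), against group medians of 0.0570% to 0.117% in the other regions. With the log2 spike-in share as covariate in place of the surrogate variables, 0 members had an unadjusted p under 0.05, where mt-Nd1 was 0.24 ± 0.17 and mt-Nd2 0.33 ± 0.20.

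**Figure D4:**
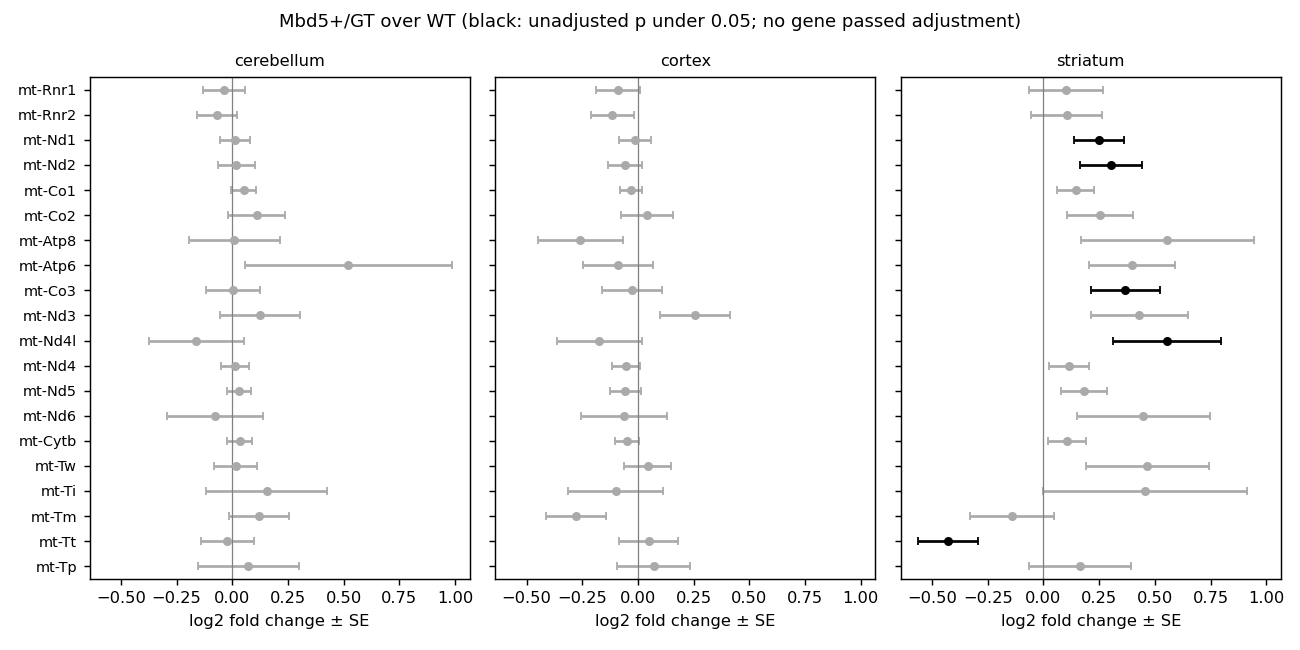
Log2 fold changes of Mbd5+/GT over WT (points) with standard errors (bars) for the same 20 mitochondrial genes in cerebellum, cortex and striatum, 10 against 8 mice in each; black marks an unadjusted p under 0.05, and no gene passed adjustment. All black points are in striatum, 4 above 0 and mt-Tt below.

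The genotype effects of the regions were compared by interaction terms over all 54 libraries, without surrogate variables. With edgeR, 0 of 25 members had an adjusted p under 0.05 in any pair, beside 0% of all genes in each. At an unadjusted p under 0.05 there were 0 members between cerebellum and cortex, beside 1.11% of all genes, 3 between cerebellum and striatum, beside 2.68%, and 8 between cortex and striatum, beside 4.22%. The 3 were mt-Nd1, mt-Nd2 and mt-Nd4l. The 8 were these and mt-Co1, mt-Atp8, mt-Co3, mt-Nd4 and mt-Cytb, each with a lower effect in cortex than in striatum. The difference was −0.60 ± 0.22 for mt-Nd2 and −0.42 ± 0.18 for mt-Nd1 (unadjusted p = 0.00940 and 0.0240, both adjusted p = 0.989). Without the 4 libraries low in region markers the counts were 0, 2 and 3, and they were 0, 4 and 10 under a replicate block for the mouse. Of the 8 named, mt-Co3 and mt-Nd4l are of uncertain origin and mt-Atp8 may be. These counts of calls come from the same libraries and are not separate observations.

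Of 12 comparisons of the 4 ratios between genotypes, 0 passed (exact permutation test over all 43758 splits, 2-sided, adjusted p = 0.539 to 0.976 over 12 comparisons, and 0.601 to 0.973 over 3500 splits made within litters). The largest differences were in striatum. There mt-Rnr2 to mt-Nd1 ran from 0.751 to 1.86 with a median of 0.947 in WT and 0.655 to 1.73 with a median of 0.758 in Mbd5+/GT mice, a log2 difference of −0.29 ± 0.20 (SE). mt-Cytb to mt-Nd1 ran from 1.25 to 2.14 with a median of 1.57 in WT and 1.15 to 1.88 with a median of 1.30 in Mbd5+/GT mice, a difference of −0.22 ± 0.13. Both overlapped. These differences were −0.26 and −0.27 without the 4 libraries low in region markers, and the adjusted exact p ran from 0.733 to 0.976 over the 12 comparisons.

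The ratio of mt-Cytb to mt-Nd1 moved with the spike-in share in striatum, in a relation looked for after the data were seen. Over 18 mice, Pearson's r with the log2 spike-in share was 0.708 (permutation p = 0.00175, adjusted 0.0105 over 6 relations) and Spearman's rho 0.661 (permutation p = 0.00383, adjusted 0.0230). Without the 2 mice farthest from the median spike-in share r was 0.705, without the 2 striatum libraries low in region markers 0.718, and within genotypes 0.566 over 10 Mbd5+/GT and 0.786 over 8 WT mice. In cerebellum r was −0.256 and in cortex 0.138 (adjusted permutation p = 0.460 and 0.590). For mt-Rnr2 to mt-Nd1, r was 0.455 in cerebellum, −0.200 in cortex and 0.394 in striatum (adjusted permutation p = 0.175, 0.570 and 0.212). What sets the spike-in share of a library is not given in the sources used here.

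**Figure D5:**
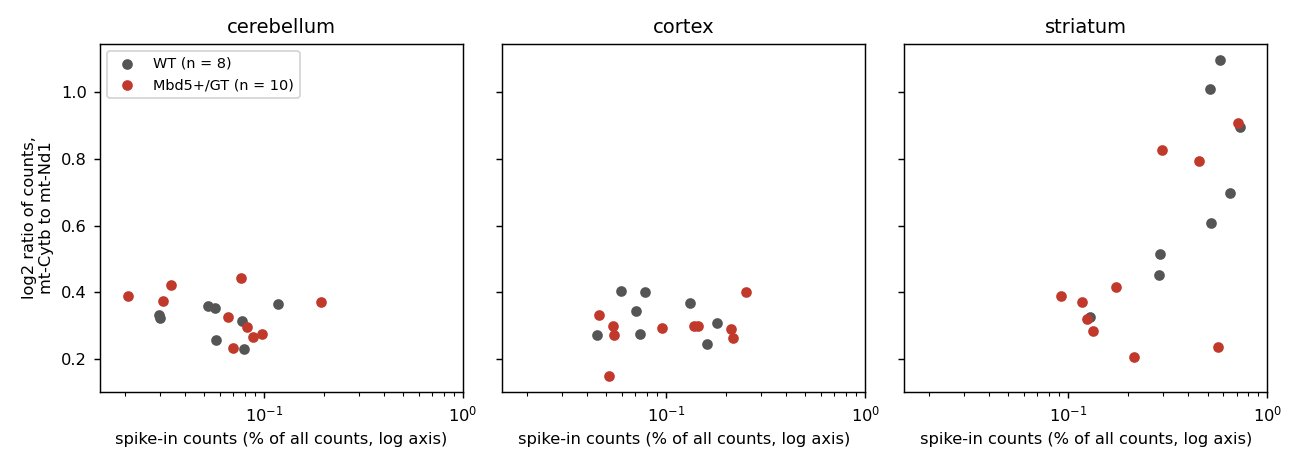
Log2 ratio of raw counts of mt-Cytb to mt-Nd1 against the spike-in counts of the same library (percent of all counts, log axis), 1 point per mouse, by region and genotype. In striatum the ratio rises with the spike-in share (r = 0.708) up to 1.10 on the log2 scale, and in cerebellum and cortex all log2 ratios lie between 0.15 and 0.44.

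Nuclear genes that make and handle mitochondrial RNA were counted from the same fits. Between genotypes, 0 genes of 3 lists had an adjusted p under 0.05 in any region: 56 genes of mitochondrial RNA synthesis and processing, 10 regulators of mitochondrial biogenesis and 22 genes of the mitochondrial membranes and matrix. At an unadjusted p under 0.05 edgeR called 0, 0 and 0 of them in cerebellum, 1, 2 and 1 in cortex and 3, 0 and 2 in striatum, beside 2.75%, 8.47% and 7.44% of all genes. The smallest unadjusted p values belonged to Trub2, Pde12 and Esrrb in cerebellum (log2 fold changes 0.08, 0.06 and −0.21), Tomm70a, Esrrg and Nrip1 in cortex (−0.18, −0.16 and −0.11) and Nsun3, Hsd17b10 and Slc25a5 in striatum (0.30, −0.16 and −0.14), with adjusted p from 0.388 to 0.99994. Nsun3 modifies the mitochondrial methionine tRNA, and Hsd17b10 is a subunit of the enzyme that cuts the 5′ ends of mitochondrial tRNAs.

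Between regions, genes of these lists differed in both directions. Of the 56 RNA synthesis and processing genes, 32 were higher and 5 lower in cerebellum than in cortex (adjusted p under 0.05), 27 and 11 than in striatum, and 11 were higher and 21 lower in cortex than in striatum. Of all genes, 35.5% were higher and 33.3% lower in the first comparison, 38% and 37.3% in the second and 30.1% and 28.9% in the third. The medians of their log2 fold changes were 0.21, 0.10 and −0.09, beside 0.02, −0.0020 and 0.0017 for all genes. Of the 10 biogenesis regulators, 8 were higher in cerebellum than in each other region and 0 lower, and 6 were higher and 2 lower in cortex than in striatum (medians 0.51, 0.94 and 0.45). Of the 22 membrane and matrix genes, 13 were higher and 5 lower in cerebellum than in cortex, 9 and 8 than in striatum, and 2 and 11 in cortex than in striatum (medians 0.20, 0.03 and −0.09). Esrrb and Esrrg, estrogen-related nuclear receptors that activate genes of oxidative metabolism, had means of 10.5 ± 2.13 and 81.7 ± 18.8 normalised counts in cerebellum, 2.01 ± 0.641 and 32.4 ± 5.62 in cortex and 1.62 ± 0.875 and 18.3 ± 10.97 in striatum (SD, n = 18). Polg2, the accessory subunit of the mitochondrial DNA polymerase, was higher in cerebellum than in cortex by 1.63 ± 0.08 and Tomm20, an import receptor of the outer membrane, lower, with −0.67 (adjusted p = 9.96e-24 and 5.24e-13). Thg1l and 1110008L16Rik were lower in cerebellum than in striatum (−0.65 each). Clpp, a matrix protease, and Slirp, which stabilises mitochondrial mRNAs, were lower in cortex than in striatum (−0.56 and −0.55), and Ppargc1b, a coactivator of biogenesis, was higher (1.27).

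Markers of cell types also differed between the regions. All 8 microglia markers were lower in cerebellum than in cortex and striatum, with sums of 67.6 to 265 CPM against 282 to 415 and 277 to 510. The shares of all genes given above apply to these counts too. Of 10 oligodendrocyte markers, 6 were higher in cerebellum than in cortex, 8 lower in cerebellum than in striatum and 10 lower in cortex than in striatum, with sums of 4179 to 33612, 3347 to 8484 and 6472 to 17749 CPM in cerebellum, cortex and striatum. Neuron markers summed to 4995 to 8754, 5931 to 7815 and 4053 to 7303 CPM, and astrocyte markers to 4788 to 6396, 4855 to 6956 and 3836 to 5346. Of 10 neuron markers, 2 were higher and 3 lower in cerebellum than in cortex, and of 8 astrocyte markers 6 and 1. Against striatum, 4 neuron markers were higher and 5 lower in cerebellum, and 4 higher and 2 lower in cortex. For astrocyte markers these were 5 and 2 in cerebellum and 4 and 2 in cortex. Among markers of vessels, blood and surrounding tissue, 0 of 6 endothelium, 5 of 5 erythrocyte, 2 of 6 choroid plexus and 1 of 6 meninges markers were higher in cerebellum than in cortex, and 4, 0, 0 and 0 were lower. Against striatum, 1, 0, 1 and 5 were higher and 2, 0, 0 and 0 lower in cerebellum. In cortex 2, 0, 0 and 3 were higher and 2, 1, 4 and 0 lower than in striatum. Between genotypes, 0 markers of any list had an adjusted p under 0.05. At an unadjusted p under 0.05 edgeR called 5 of 6 choroid plexus markers and 2 of 4 nuclear-retained RNAs in cortex. All were higher in Mbd5+/GT mice, as was 1 of 8 astrocyte markers. In the same region 2 of 9 striatum and 1 of 8 cerebellum markers were lower. In striatum 1 of 8 microglia, 1 of 10 neuron and 1 of 8 astrocyte markers were higher, and 2 microglia markers lower. In cerebellum 1 of 8 astrocyte markers was higher and 1 of 6 cortex markers lower. Of all genes, 8.47% were called in cortex, 7.44% in striatum and 2.75% in cerebellum. Striatum markers summed to 271 to 2441 CPM (median 1494) in WT and 357 to 1658 (median 732) in Mbd5+/GT cortex. Choroid plexus markers summed to 13.8 to 240.1 CPM in WT and 8.65 to 1341 in Mbd5+/GT cortex. The part of cell type makeup in the members' values was not tested.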

How the data were processed

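The authors deposited raw counts per gene for 54 libraries, whole numbers with no normalisation, for 47069 genes and 92 spike-ins. The submitters' processing notes name FastQC 0.10.1 and STAR 2.4.2. The counts are of reads that map to 1 place. The strand setting is not given in the sources used here, so reads of 1 strand may be counted for a gene on the other. The effect of reads that lie over more than 1 gene was not tested. Of the gene IDs, 46574 matched GENCODE vM21 (GRCm38). Libraries held 25295973 to 49027399 counts. Separate mice were the replicates.

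A gene was tested where 8 or more libraries held over 4 counts, with edgeR 4.0.16 (quasi-likelihood, TMM) in R 4.3.3. Genotype was fitted per region with 2, 4 and 4 surrogate variables (sva 3.50.0) in cerebellum, cortex and striatum, after the study's methods, and regions and interactions over all 54 libraries without them. Benjamini-Hochberg adjustment ran over all genes tested, with an adjusted p threshold of 0.05. DESeq2 1.42.0, other normalisations, filters, covariates and samples were alternatives. Ratios of raw counts were compared by exact permutation and sign-flip tests. Scripts were tested on simulated data.

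All mitochondrial mRNA and rRNA genes were named, with the 5 tRNA genes of highest mean count that passed the filter, the 3 nuclear copies of highest mean count and Mbd5. Of the nuclear lists, the 3 genes with the smallest unadjusted p per genotype comparison and up to 2 with the largest change in each direction per region comparison were named. mt-Tk, mt-Tr, mt-Ts2, mt-Tl2 and the tRNA genes that passed a test were named after their values were seen. The members and lists were chosen with earlier results of these data known. The 3 regions of a mouse come from the same animal, which pairs them. The correlation of their deviations from the group means had medians of 0.231 for cerebellum and cortex, 0.0780 for cerebellum and striatum and 0.0894 for cortex and striatum over 18 mice.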

Additional observations from a re-analysis of the deposited data

Results flagged for a closer look

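Of 132 groups of 8 or 10 values examined, 10 had a highest value that stood apart from the others by Dixon's criterion, which chance gives in about 1 in 20 groups. Among the counts of uncertain origin, mt-Co2 reached 9.20 normalised counts in the cerebellum of Mbd5+/GT mouse M766 (next 6.88) and 25.7 in the striatum of Mbd5+/GT mouse M767 (next 13.1). mt-Atp6 reached 28.7 in the cerebellum of the latter mouse (next 6.82). In the striatum of WT mouse M757, mt-Atp8 was at 1.36 (next 0.335) and mt-Ti at 7.23 (next 2.08). mt-Nd6 was at 96.3 in the cerebellum of WT mouse M761 (next 54.5). In the striatum of WT mouse M752, mt-Rnr1 was at 7787 (next 5063) and mt-Tm at 5.43 (next 3.48). The rRNAs took 28.7% of chromosome M counts in the striatum of Mbd5+/GT mouse M753 (next 20.8%) and 21.0% in the cortex of WT mouse M754 (next 17.2%). No cause was tested.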

How the results depend on the processing

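Over the alternatives, 158 values of counts, shares and ratios stayed as reported, 14 moved and 3 turned in sign, and of the values of single genes 554 stayed, 13 lost their call and 26 turned in sign. The cause was not tested. Alternatives with the spike-in share, without mice M752 and M753 or without the 4 libraries low in region markers were chosen after seeing the data. With the mouse as a replicate block the region counts were 17, 13 and 12 with mt-Ts1 included, and the paired fit changed no other call than those of mt-Atp6, mt-Te and mt-Ti given above.

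Members at an unadjusted p under 0.05 between genotypes numbered 1 (DESeq2), 2 (litter and sex), 3 (no filter) and 3 (without litter 2) in cortex, and 3 (litter and sex), 0 (spike-in share), 1 (without low-marker libraries) and 0 (without litter 2) in striatum. Between cerebellum and striatum, 6 members passed in WT mice alone, and 3 passed in the interaction of cortex and striatum without low-marker libraries. With mRNA genes alone the median share was 4.21% in Mbd5+/GT cerebellum, 6.07% in WT cortex, 5.63% in Mbd5+/GT striatum and 4.09% in WT striatum.

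Values that turned in sign lay between −0.110 and 0.0919. For genotype in cerebellum they were, without surrogate variables, −0.0031 (mt-Nd1), −0.0176 (mt-Nd2) and −0.0735 (mt-Nd5). With litter and sex they were −0.00048 (mt-Nd1), −0.0112 (mt-Nd2) and −0.0014 (mt-Nd4). Without litter 2 they were −0.0663 (mt-Nd1), −0.110 (mt-Nd2), −0.0541 (mt-Nd4), −0.0355 (mt-Nd5) and −0.0153 (mt-Cytb). With the spike-in share they were −0.0033 (mt-Nd1), −0.0050 (mt-Nd2) and −0.0324 (mt-Nd5), and without low-marker libraries 0.0128 (mt-Rnr1). For cerebellum over striatum, mt-Nd5 was −0.0169 with nuclear library sizes, −0.0048 with DESeq2's size factors in either tool, −0.0023 without mice M752 and M753 and −0.0466 without low-marker libraries. For cortex over striatum, mt-Rnr1 was 0.0037 without mice M752 and M753, mt-Nd4 0.0534 in WT mice alone, and mt-Cytb −0.0022 with nuclear library sizes, −0.0176 with no filter, −0.0214 without mice M752 and M753 and −0.0144 without low-marker libraries. The log2 ratio of mt-Nd6 to mt-Nd5 was −0.0185 for genotype in striatum without litter 2, and for cerebellum over cortex 0.0035 without litter 2 and 0.0919 without low-marker libraries. The tRNA genes and the 6 mRNA genes under 10 CPM rested on at most 1858 and 1559 counts per library.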
